A study of Mus musculus with 36 samples.

Results

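Poly IC is a synthetic double-stranded RNA that is used as a vaccine adjuvant, and the genes it changed in wild-type (WT) dendritic cells (DCs) of the mouse spleen 4 h after injection are described here beyond their antiviral core. The samples were chosen by their titles: 8 arrays of WT DCs taken 4 h after poly IC, set against 9 arrays of unstimulated DCs, 17 of the 36 arrays of the series. The other arrays hold PRR-/- DCs, IFNAR-/- DCs, which lack the type I IFN receptor, and DCs taken at 14 h. All DCs were CD11chi CD3- DX5- B220- cells of C57BL/6 background, sorted from spleen. Per the study's methods the WT DCs came from bone marrow mixed chimeras, in which WT CD45.1 marrow developed beside PRR-/- or IFNAR-/- CD45.2 marrow, from mice of 7 to 8 wk given 50 µg of poly IC intraperitoneally. The labels of the unstimulated samples give their treatment as none and state no genotype. The study's negative controls were WT and knockout DCs of mixed chimeras given PBS, and DCs of PRR-/- mice given poly IC. These controls were pooled in the study, and the labels do not say which control a sample was. The unstimulated DCs therefore need not share the genotype, or come from the same kind of mouse, as the WT DCs. The spread between the first 2 unstimulated arrays (a median absolute deviation of 0.0739 log2 units) was under that of the next closest pair (0.108), and these arrays were averaged and counted as 1 sample, which leaves 8 WT and 8 unstimulated samples. Below, WT DCs always means WT DCs 4 h after poly IC.

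DCs sample their surroundings through endocytic and pattern recognition receptors and are held ready to take up antigen until an inflammatory signal reaches them. Maturation then turns uptake down, changes the chemokine receptors and with them the place of the cell, raises ligands that T cells read, and alters metabolism and survival. Double-stranded RNA is sensed by TLR3 in endosomes and MDA5 in the cytosol, which start type I IFN production, and IFN acts back on all cells that carry its receptor through the STAT factors. DCs in tissue divide little, and spleen DCs are replaced from precursors.

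Expression was measured on Illumina bead arrays, and a level here is a log2 bead signal after quantile normalization, with undetected signals set to the background of their array (a log2 level of 6.49, which in the values below marks a sample in which the gene was not detected). A number in brackets after a gene is its log2 change, WT DCs over unstimulated DCs, and SE is the standard error of limma's fit. Levels were compared between samples for one gene and never between genes. A gene was called changed at an adjusted p under 0.05 from limma with a change of at least 2-fold over 9606 genes tested. Called higher were 461 genes (4.8%) and called lower 230 (2.39%), so that 66.71% of the calls were rises, against 81.91% (593 and 131) with arrays brought to one median and 53.64% (626 and 541) with another background correction (neqc). The groups did not overlap in 664 genes that were higher (6.91%) and in 1058 that were lower (11%). Among called genes, 394 of the 461 rises and 201 of the 230 falls had no overlap, so a lack of overlap below adds little to a call. Single samples of WT DCs had 10428 to 11099 of 25697 probes detected and unstimulated arrays 11492 to 11908, so detection also separated the groups, and its part in the changes below was not tested. Between pairs of samples the spread of all genes was 0.133 to 0.372 log2 units among WT DCs, 0.108 to 0.355 among unstimulated DCs and 0.299 to 0.532 between the groups. In 3 sets, samples of both groups resembled each other: set A held WT replicates 1 and 2 and the averaged unstimulated replicates 1 and 2, set B held WT replicates 3 to 6 and unstimulated replicates 3 and 4, and set C held WT replicates 7 and 8 and unstimulated replicate 5. Unstimulated replicates 6 to 9 lay outside the sets. The arrays hold RNA of sorted cells in bulk, so fewer cells of a type and less RNA per cell cannot be told apart. The p-values measure the spread between samples within the groups of the whole series, because all groups were fitted together. A figure legend of the study describes its array samples as pools of mice, and the labels do not tie samples to separate mice.

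The rises were larger than the falls. Of the 461 genes called higher, 136 changed more than 4-fold and 60 more than 8-fold, and 24 were detected in no unstimulated sample. Of the 230 genes called lower, 3 changed more than 4-fold and none more than 8-fold, and 228 were detected on all 9 unstimulated arrays and 222 on all 8 WT arrays. In the middle of each class the log2 change was 1.54 for the rises and -1.15 for the falls. Members of the lists of antiviral and type I IFN genes were 61 of the rises and none of the falls. Ifna15, a type I IFN gene that these lists left out, rose as well (3.43) and counts among the rest. The remaining 400 rises and all 230 falls are the subject of what follows.

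The largest rises outside these lists belonged to genes of many kinds. Sct encodes the hormone secretin and had lowest, median and highest levels of 12.52, 12.83 and 13.55 in WT DCs and 6.50, 6.92 and 7.57 in unstimulated DCs. AA467197, a short transcript that hosts a microRNA, had 11.59, 11.91 and 12.30 in WT DCs and 6.50, 6.74 and 7.00 in unstimulated DCs (the 3 values stand in this order throughout). Every WT sample lay far above every unstimulated sample for both (log2 changes 5.95 ± 0.20 and 5.21 ± 0.34 SE). The carbonic anhydrase Car13 followed with log2 change 4.52 ± 0.17 SE, the Schlafen family gene Slfn1 with 4.18, the tetraspan gene Ms4a6d with 3.84 and the chitinase-like gene Chil1 with 3.66. Rilpl1, whose product binds Rab GTPases on lysosomes, changed by 3.62, the complement factor gene Cfb by 3.43, the muscle scaffold gene Nrap by 3.41 and the histone chaperone gene Daxx by 3.23. In each of these 8 genes the WT and unstimulated samples did not overlap.

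Promoter sequences were read from RefSeq on GRCm38.p6, for the 300 bases from 250 before to 50 after a start site. Of 9606 genes, 7924 matched a window. The IFN-stimulated response element (ISRE), searched as GAAA, any 2 bases and GAAA on both strands, stood in the windows of 63.3% of the antiviral and type I IFN genes that rose (31 of 49 with a window), in 7.48% of the other genes that rose (24 of 321), in 1.07% of the genes that fell (2 of 187) and in 4.22% of all genes tested (334). The NF-kB site, GGGA, any 2 bases and TTCC, stood in 12.2%, 3.43%, 2.67% and 1.74% of the same 4 classes, and the AP-1 site, TGANTCA, in 16.3%, 8.41%, 7.49% and 7.02%. Each motif was counted by itself, and matches of different motifs may overlap. Ifna15, whose window held the ISRE, was counted with the other genes that rose. Among all 32851 windows of the table the shares were 3.44%, 1.47% and 7.81%. A match is a run of letters and no evidence of binding. The stretches below show the motif in capitals before the start sites of 5 genes that rose and 1 that fell, 5′ to 3′ on the strand of the gene, so that the letters behind these shares can be seen (in its reverse orientation the ISRE reads TTTC, 2 bases, TTTC).
Isg15 (chr4:156200850-156200921, minus strand): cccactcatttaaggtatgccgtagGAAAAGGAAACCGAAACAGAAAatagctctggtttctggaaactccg
Lgals9 (chr11:78984945-78985004, minus strand): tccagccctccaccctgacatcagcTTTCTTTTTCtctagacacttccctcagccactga
Trim30d (chr7:104507856-104507915, minus strand): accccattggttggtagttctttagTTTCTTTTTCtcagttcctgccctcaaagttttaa
Cxcl2 (chr5:90903777-90903837, plus strand): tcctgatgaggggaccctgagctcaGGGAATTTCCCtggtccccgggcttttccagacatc
Il6 (chr5:30013045-30013104, plus strand): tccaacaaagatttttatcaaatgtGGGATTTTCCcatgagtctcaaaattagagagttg
Ivns1abp (chr1:151344388-151344447, plus strand): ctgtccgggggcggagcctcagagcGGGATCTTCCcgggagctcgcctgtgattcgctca
Isg15, the antiviral modifier gene, had 3 overlapping copies. Lgals9, which encodes galectin-9, and Trim30d, of the tripartite motif family, lie outside the core lists and held the element in its reverse orientation. Cxcl2 and Il6 encode a chemokine and a cytokine. Ivns1abp, which encodes a protein that binds an influenza virus protein, fell although its window held an NF-kB run.

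Surface receptors changed in both directions. The plot of the list members gives every member of each list and its median. Each count of calls in a list is to be read beside all genes, of which 4.8% were called higher and 2.39% lower.

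**Figure D1:**
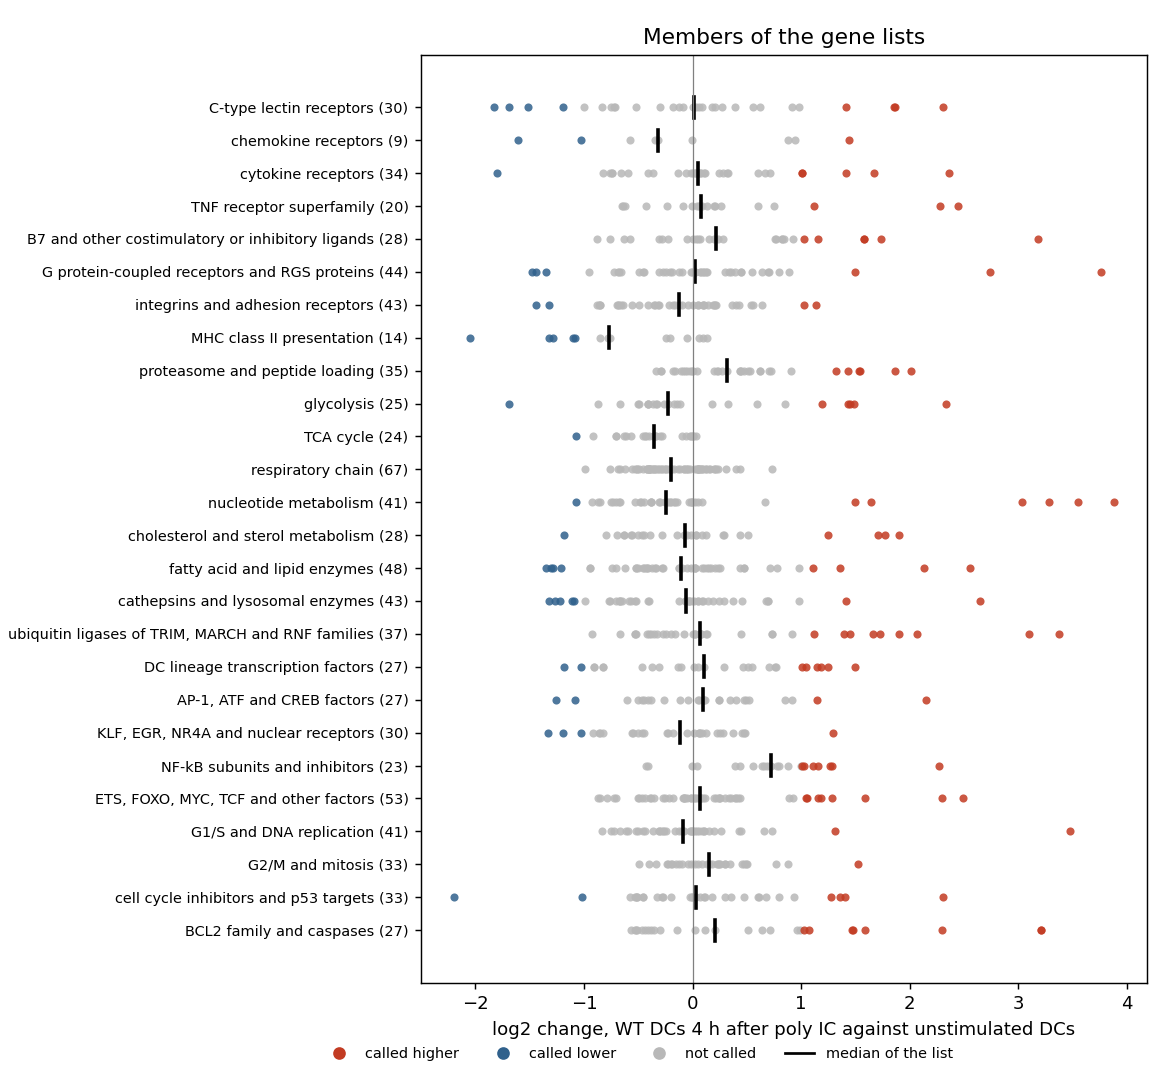
Log2 change of WT DCs 4 h after poly IC against unstimulated DCs for every measured member of 26 gene lists, with the number of members in brackets. Red points were called higher, blue points called lower and grey points not called, and the black bar is the median of the list. The median of the MHC class II list was -0.77 and that of the NF-kB list 0.72, while the receptor lists spread to both sides of 0.

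Of 30 measured C-type lectin receptors, 4 rose and 4 fell (median 0.02). Clec4e, the receptor Mincle for glycolipids, had levels of 7.85, 9.52 and 10.62 in WT DCs and 6.86, 6.96 and 7.50 in unstimulated DCs. Its WT samples spread widely but lay above all unstimulated samples (log2 change 2.31 ± 0.28 SE, adjusted p = 9.19e-08). Ly75, the endocytic receptor DEC-205 of cross-presenting DCs, had 9.18, 9.59 and 10.10 in WT DCs and 7.17, 7.58 and 8.54 in unstimulated DCs, with no overlap (log2 change 1.86 ± 0.25 SE). The activation marker Cd69 (1.85) and Clec4d, a partner of Mincle (1.41), also rose.
The lectins that fell are known as markers of DC and NK cell subsets. Cd209a, which encodes a DC-SIGN homologue of CD11b+ spleen DCs, had 7.53, 8.21 and 8.42 in WT DCs and 9.32, 9.81 and 10.40 in unstimulated DCs. The groups stood apart (log2 change -1.69 ± 0.22 SE, adjusted p = 3.9e-07). Klrd1, the CD94 chain of NK receptors that some DCs carry, fell as well (-1.19). Cd207, the langerin gene, and Klra17, a Ly49 family receptor, were called lower (-1.51 and -1.83), but their WT and unstimulated samples overlapped, and both calls depended on which unstimulated samples were used, as given with the genes that fell.

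Among chemokine receptors single genes changed. Ccr7 directs DCs to the T cell zone and had 10.63, 11.89 and 12.41 in WT DCs and 9.78, 10.12 and 10.93 in unstimulated DCs. Its highest unstimulated sample reached into the WT range (log2 change 1.44 ± 0.26 SE, adjusted p = 3.06e-05). Ccr6, the receptor for Ccl20, had 7.68, 8.33 and 8.87 in WT DCs and 9.35, 9.81 and 10.95 in unstimulated DCs, with all WT samples below all unstimulated samples (log2 change -1.61 ± 0.19 SE), although its other probe changed by -0.87, and the gene was not called in the authors' normalized values. Cxcr3, the receptor for Cxcl9 and Cxcl10, had 6.98, 7.25 and 7.35 in WT DCs and 7.99, 8.24 and 8.60 in unstimulated DCs, a fall just past the 2-fold limit (log2 change -1.03 ± 0.17 SE). These 3 were the calls among 9 measured receptors (median -0.32).

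Among G protein-coupled receptors most calls were receptors for peptides, nucleotides and lipid mediators. Fpr2, a receptor for formyl peptides and lipid mediators, had 11.30, 12.61 and 13.16 in WT DCs and 7.79, 8.71 and 9.34 in unstimulated DCs. It was 13.5-fold higher, and no sample overlapped (log2 change 3.76 ± 0.27 SE, adjusted p = 3.87e-12). P2ry13, a receptor for ADP, had 9.81, 10.35 and 10.65 in WT DCs and 7.35, 7.56 and 7.87 in unstimulated DCs. The orphan receptor Gpr141 had 9.06, 9.64 and 10.61 in WT DCs and 7.22, 8.19 and 9.34 in unstimulated DCs. The P2ry13 samples stood apart (log2 change 2.74 ± 0.14 SE) and those of Gpr141 overlapped (log2 change 1.49 ± 0.29 SE).
On the falling side stood P2ry6, a receptor for UDP, with 9.92, 10.60 and 10.86 in WT DCs and 11.44, 11.96 and 12.48 in unstimulated DCs and no overlap (log2 change -1.45 ± 0.29 SE). Ramp1, a partner of the receptor for the neuropeptide CGRP, was lower in each WT sample than in any unstimulated sample (log2 change -1.48 ± 0.25 SE), and Ltb4r1, the high-affinity receptor for leukotriene B4, fell too (-1.35). These were 3 rises and 3 falls among 44 measured genes, which include RGS proteins (median 0.02).

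**Figure D2:**
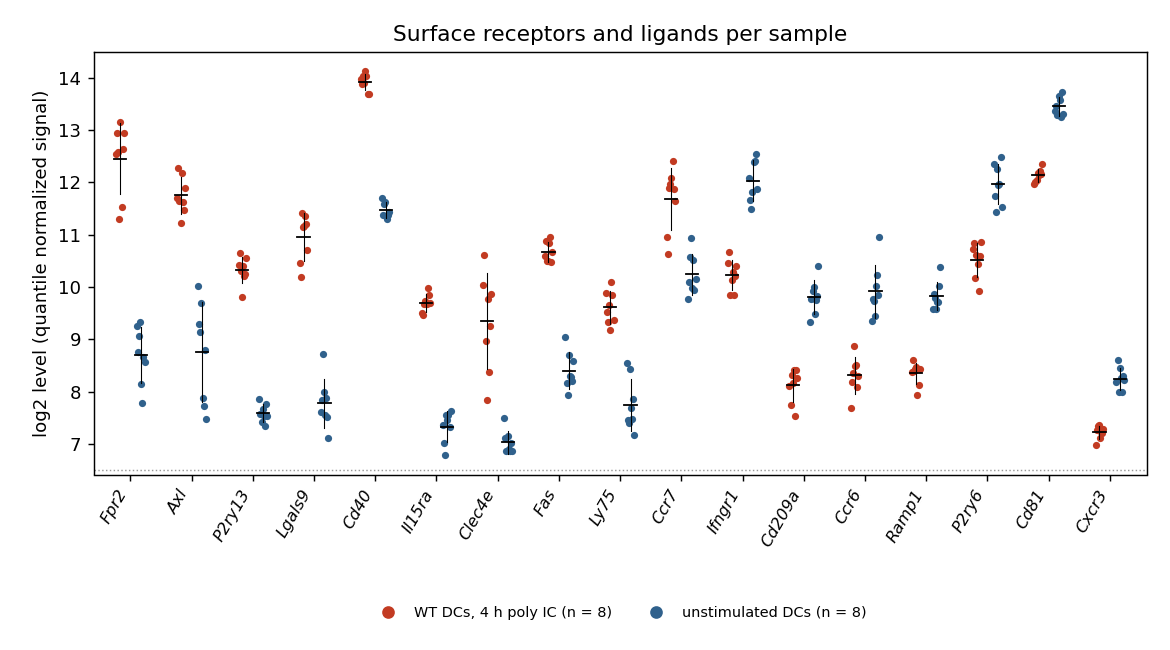
Log2 level of 17 receptor and ligand genes in each sample, WT DCs 4 h after poly IC in red on the left and unstimulated DCs in blue on the right of each gene, with the mean (bar) and SD (line) of 8 samples each. The dotted line is background. From Fpr2 to Ccr7 the WT samples were higher, and from Ifngr1 to Cxcr3 lower, with overlap in Ccr7 alone.

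Cytokine receptors rose in 5 of 34 measured members and fell in 1 (median 0.05). Il15ra, which presents IL-15 to NK and T cells, had 9.46, 9.69 and 9.99 in WT DCs and 6.78, 7.41 and 7.62 in unstimulated DCs, with the groups apart (log2 change 2.36 ± 0.22 SE, adjusted p = 4.48e-10), although its probes ranged down to 0.92 and the authors' normalized values gave 1.17. Il21r (1.67), the IL-3 receptor chain Il3ra (1.41), Il2ra (at least 2.01-fold, undetected in unstimulated samples) and Il12rb2 (1.01) followed. The single fall was Ifngr1, the ligand-binding chain of the IFN-γ receptor, with 9.85, 10.24 and 10.67 in WT DCs and 11.50, 11.98 and 12.55 in unstimulated DCs. It lay lower in each WT sample (log2 change -1.80 ± 0.20 SE, adjusted p = 1.9e-08).
Of the TNF receptor superfamily 3 of 20 rose and none fell: Cd40 (2.45), the death receptor Fas (2.28) and Tnfrsf11a, which encodes RANK (1.12). Cd40, through which T cells license DCs, had 13.69, 13.94 and 14.13 in WT DCs and 11.30, 11.41 and 11.71 in unstimulated DCs, and its groups were far apart. Another probe of Fas changed by 0.06, and in the authors' normalized values the gene's change was 0.39 and not called. The ligands of the family gave 3 rises among 12, Tnfsf9 (4-1BBL, 1.36), Cd70 (1.08) and Tnfsf10 (TRAIL), which was detected in no unstimulated sample and was at least 2.06-fold higher (the bound is set against background).

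Ligands of the B7 and related families rose in 6 of 28 measured members and fell in none (median 0.21). Lgals9, a ligand of TIM-3, had 10.19, 11.16 and 11.42 in WT DCs and 7.12, 7.72 and 8.72 in unstimulated DCs, the largest change of the list (log2 change 3.18 ± 0.20 SE, adjusted p = 1.71e-13). Cd200, the ligand of an inhibitory myeloid receptor, had 8.20, 8.26 and 8.83 in WT DCs and 6.49, 6.62 and 6.93 in unstimulated DCs. The groups did not overlap in either gene (log2 change 1.73 ± 0.19 SE for Cd200). Lag3, which binds MHC class II (1.58), Nectin2, a ligand of DNAM-1 and TIGIT (1.57), the PD-L1 gene Cd274 (1.15) and the integrin ligand Icam1 (1.03) completed the 6.
Axl, a receptor tyrosine kinase that binds phosphatidylserine through Gas6 and dampens innate responses, had 11.23, 11.68 and 12.28 in WT DCs and 7.48, 8.96 and 10.02 in unstimulated DCs. It was 8-fold higher (log2 change 3.00 ± 0.31 SE, adjusted p = 5.83e-09), and Timd4, another phosphatidylserine receptor, rose by 1.28. They were the 2 calls among 17 scavenger and phagocytic receptors (11.8% against 7.19% of all genes). The Fc receptor genes Fcgr1 (at least 3.41-fold, undetected in unstimulated samples) and Fcgr4 (1.54) rose, and Fcgrt, the neonatal Fc receptor that recycles IgG, fell just past the limit (-1.01). The paired receptors Lilrb4a (1.97) and Trem3 (1.17) were the 2 calls of 25 (8%, near the 7.19% of all genes), and both were higher. Of 22 Toll-like receptors and adaptors Tlr7, an endosomal sensor of single-stranded RNA (1.25), and Cd14, a co-receptor for lipopolysaccharide, rose (9.09%, also near that share).
Among 43 integrins and adhesion receptors 2 rose (Icam1 and Jaml, 1.14) and 2 fell (9.30% called against 7.19% of all genes). The tetraspanin Cd81 had 11.97, 12.15 and 12.35 in WT DCs and 13.26, 13.42 and 13.72 in unstimulated DCs. Emb, which encodes embigin, a chaperone of lactate transporters, had 8.99, 9.59 and 10.06 in WT DCs and 10.61, 10.93 and 11.52 in unstimulated DCs. In both the WT samples lay below the unstimulated samples throughout (log2 changes -1.32 ± 0.12 and -1.45 ± 0.22 SE).

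Genes of the MHC class II pathway were called in one direction only, lower, and genes of MHC class I loading in the other. Of 14 measured class II pathway genes 5 were called lower and none higher, with a median of -0.77 against -0.02 over all genes tested. H2-DMa and H2-DMb1 encode the chains of H2-DM, which edits the peptides bound to class II. H2-DMa had 12.37, 13.03 and 13.33 in WT DCs and 14.10, 14.21 and 14.46 in unstimulated DCs. H2-DMb1 had 11.43, 11.96 and 12.22 in WT DCs and 13.14, 13.18 and 13.33 in unstimulated DCs. Neither gene's samples overlapped (log2 changes -1.28 ± 0.21 and -1.32 ± 0.18 SE), and H2-DMb2 fell with them (-1.10). Ciita, the master regulator of class II transcription, had 11.03, 11.33 and 11.71 in WT DCs and 11.96, 12.47 and 12.90 in unstimulated DCs (log2 change -1.09 ± 0.18 SE, adjusted p = 8.48e-06). The fifth call, H2-M2, encodes a class I-like molecule and not a class II chain (-2.05). The class II chain H2-Aa and the invariant chain Cd74 were not called (-0.25 and 0.14). With arrays brought to one median, which put the median of all genes at 0.23, 1 of the 14 was called, the class I-like H2-M2, and H2-DMa, H2-DMb1, H2-DMb2 and Ciita were not. With the sample sets as a block, and against the unstimulated samples inside the sets, Ciita changed by -0.79 and was not called.
Of 35 proteasome and peptide loading genes 6 rose and none fell (median 0.32). Nlrc5, the regulator of class I transcription, had 11.41, 11.76 and 12.06 in WT DCs and 9.12, 9.89 and 10.38 in unstimulated DCs. It rose (log2 change 1.86 ± 0.14 SE) with the transporter gene Tap1 (1.43), the loading factors Tapbp (1.53) and Tapbpl (1.54), the class Ib gene H2-T10 (2.01) and the immunoproteasome subunit Psmb10 (1.32).

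Among secreted products outside the IFN genes the calls were rises with 1 exception, and most genes were not called. Of 28 cytokine and growth factor genes 8 rose and 1 fell. Il1rn, the natural antagonist of IL-1, had 11.21, 11.39 and 11.82 in WT DCs and 6.99, 7.22 and 8.15 in unstimulated DCs (log2 change 4.07 ± 0.22 SE), but its other probe changed by 0.88 and the authors' normalized values gave 1.24. Il15, a growth factor of NK and memory T cells, had 12.01, 12.36 and 12.79 in WT DCs and 9.06, 9.30 and 9.89 in unstimulated DCs (log2 change 2.91 ± 0.16 SE). Il27 was detected in no unstimulated sample and was at least 17.1-fold higher. Il6 (2.19), Osm (1.40), Il10 (1.15) and Cd70 rose too. Ifng was called (log2 change 1.44 ± 0.52 SE, adjusted p = 0.0229), with WT levels of 6.49 to 9.96 that overlapped the unstimulated ones (detected on 7 of 8 WT and 4 of 9 unstimulated arrays). The fall was Il16, a chemoattractant released from its precursor by caspase 3 (-1.24). Among 18 listed chemokine genes Cxcl2, Ccl5 and Ccl12 rose (2.14, 2.03 and at least 2.67-fold) and none fell. The chemokine genes Cxcl9 and Cxcl10 were counted with the antiviral core instead and rose by 2.98 and 6.53.

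Among metabolic genes the calls were single enzymes of each pathway. Of 41 nucleotide genes 6 rose and 1 fell (median -0.24). Upp1, a uridine phosphorylase, had 10.13, 10.57 and 10.81 in WT DCs and 6.49, 6.60 and 6.90 in unstimulated DCs. Pnp, the purine nucleoside phosphorylase, had 13.78, 14.03 and 14.23 in WT DCs and 10.26, 10.58 and 11.23 in unstimulated DCs. Xdh, which oxidises hypoxanthine and xanthine to uric acid, had 10.82, 11.20 and 11.50 in WT DCs and 7.85, 8.12 and 8.66 in unstimulated DCs. In all 3 the groups stood far apart (log2 changes 3.88 ± 0.21, 3.28 ± 0.13 and 3.03 ± 0.14 SE), although a second probe of Pnp changed by 0.08. The pyrimidine nucleotidase Nt5c3 (3.55), the dNTP hydrolase Samhd1 (1.64) and the salvage kinase Dck (1.49) also rose. The fall was Ctps, the CTP synthetase of the de novo route (-1.07).
In glucose metabolism 5 of 25 genes rose and 1 fell, while the median was -0.22. Pfkp, the platelet form of the rate-limiting phosphofructokinase, had 11.41, 12.03 and 12.36 in WT DCs and 8.93, 9.54 and 10.42 in unstimulated DCs, with no overlap (log2 change 2.33 ± 0.18 SE, adjusted p = 1.62e-11). Pdk3, a kinase that inhibits pyruvate dehydrogenase, had 10.04, 10.37 and 10.46 in WT DCs and 8.70, 8.81 and 9.10 in unstimulated DCs (log2 change 1.49 ± 0.08 SE). Hif1a, the hypoxia-inducible factor that drives glycolytic genes, had 8.70, 9.42 and 9.65 in WT DCs and 7.67, 7.78 and 8.38 in unstimulated DCs (log2 change 1.45 ± 0.14 SE). The transporter gene Slc2a6 (1.43) and the hexokinase Hk1 (1.19) rose too. Slc2a3, which encodes the glucose transporter GLUT3, went the other way with 9.68, 9.85 and 10.23 in WT DCs and 11.12, 11.60 and 12.02 in unstimulated DCs (log2 change -1.69 ± 0.12 SE, adjusted p = 2.12e-12), and all 8 WT samples lay below all unstimulated samples.
Of 24 TCA cycle genes none rose and Mdh2 fell (-1.08), 4.17% called against 7.19% of all genes. The median of the list was -0.36. At an adjusted p under 0.05 without the fold limit 15 of the 24 were lower, against 29.6% of all genes. Of 67 respiratory chain genes none was called, and the median was -0.20. Within sets A, B and C the median of these genes was 0.02, -0.25 and 0.01. At an adjusted p alone 16 of the 67 were lower and 1 was higher, below the 29.6% of all genes.
Lipid genes were split. Acadl, the long-chain acyl-CoA dehydrogenase of fatty acid oxidation, had 10.26, 10.69 and 11.26 in WT DCs and 7.30, 7.95 and 9.43 in unstimulated DCs (log2 change 2.55 ± 0.24 SE). The scramblase gene Plscr1 (2.13), the ceramide synthase Cers6 (1.36) and the fatty acid binding protein Fabp5 (1.10) rose. The elongase Elovl5 had 10.82, 11.04 and 11.67 in WT DCs and 12.24, 12.41 and 12.95 in unstimulated DCs (log2 change -1.35 ± 0.13 SE), and the desaturase Fads1 (-1.21), the leukotriene synthesis factor Alox5ap (-1.29) and Pld4, an endolysosomal nuclease in spite of its name (-1.31), fell. These were 4 rises and 4 falls of 48 genes. Among 28 sterol genes Ch25h, which makes 25-hydroxycholesterol, was undetected in unstimulated samples and at least 3.74-fold higher, and Cyp7b1, which removes 25-hydroxycholesterol, had 8.45, 8.97 and 9.68 in WT DCs and 6.65, 6.95 and 8.32 in unstimulated DCs (log2 change 1.77 ± 0.23 SE). The sterol-sensing receptor Nr1h3 (LXRα, 1.70) and Npc2 (1.25) rose, and the lysosomal lipase Lipa fell (-1.18).
In amino acid and cofactor metabolism 4 of 32 genes rose and none fell. Ido1, which degrades tryptophan, had 8.52, 8.83 and 9.34 in WT DCs and 6.70, 6.89 and 7.29 in unstimulated DCs. Ass1, which supplies arginine from citrulline, had 10.50, 10.96 and 11.19 in WT DCs and 8.68, 9.07 and 9.47 in unstimulated DCs. Both groups were separate in each gene (log2 changes 1.90 ± 0.14 and 1.88 ± 0.15 SE). Gch1, the first enzyme of tetrahydrobiopterin synthesis, rose by 1.42. Nampt, the rate-limiting enzyme of NAD salvage, rose with overlap (log2 change 1.94 ± 0.43 SE), and WT replicates 1 and 2 had its lowest WT levels. Of 37 redox genes 6 rose, led by the haem oxygenase Hmox1 (1.96), and 2 fell, catalase (Cat, -1.17) and Gsto1 (-1.05). Among the risers were thioredoxin (Txn1, 1.40) and the metallothionein Mt1 (1.34).
Lysosomal hydrolases were among the repressed genes. Of 43 cathepsins and lysosomal genes 5 fell and 2 rose. Man2b1, a lysosomal mannosidase, had 12.23, 12.46 and 12.75 in WT DCs and 13.60, 13.70 and 13.87 in unstimulated DCs. Manba, its beta-linked counterpart, had 7.67, 8.09 and 8.59 in WT DCs and 9.14, 9.40 and 9.55 in unstimulated DCs. The WT samples lay below the unstimulated ones in both (log2 changes -1.22 ± 0.14 and -1.27 ± 0.15 SE), and the glucuronidase Gusb (-1.33), the lysozyme Lyz2 (-1.11) and the hexosaminidase Hexa (-1.10) were also called. For Gusb and Lyz2 other probes changed by -0.65 and 0.00. Lamp2, a membrane protein of lysosomes, rose (1.41), as did cathepsin E (Ctse, 2.64).

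**Figure D3:**
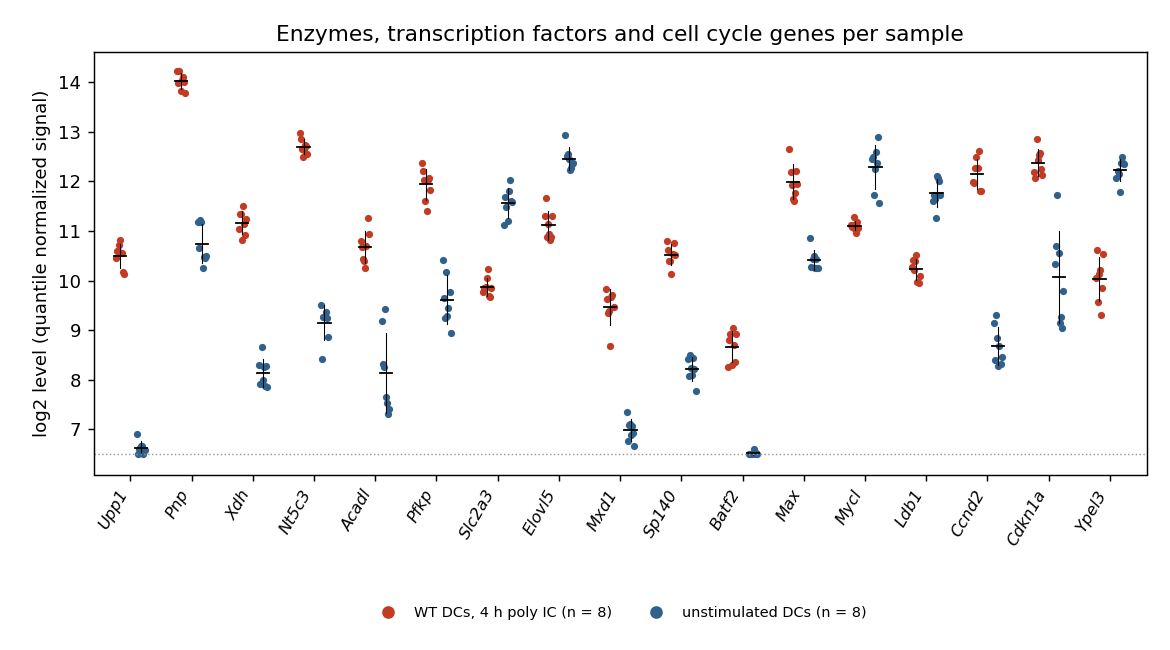
Log2 level of 17 enzyme, transcription factor and cell cycle genes in each sample, WT DCs 4 h after poly IC in red on the left and unstimulated DCs in blue on the right of each gene, with the mean (bar) and SD (line) of 8 samples each. The dotted line is background. The groups did not overlap in any of these genes, and Slc2a3, Elovl5, Mycl, Ldb1 and Ypel3 were lower in WT DCs.

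Transcription factor genes were called in both directions, with more rises than falls in 4 of the 6 lists. Of 53 genes listed for the ETS, FOXO, MYC, TCF and related families 8 rose and none fell (median 0.07), with Mycl counted among the DC lineage factors instead. Mxd1, which competes with MYC for its partner MAX, had 8.67, 9.55 and 9.83 in WT DCs and 6.67, 6.99 and 7.35 in unstimulated DCs. Max had 11.61, 11.94 and 12.66 in WT DCs and 10.25, 10.35 and 10.85 in unstimulated DCs. All WT samples were above all unstimulated samples (log2 changes 2.49 ± 0.19 and 1.59 ± 0.15 SE). Mycl, the MYC paralogue that DCs use in place of MYC, had 10.96, 11.10 and 11.28 in WT DCs and 11.56, 12.41 and 12.90 in unstimulated DCs and fell in each WT sample below the unstimulated range (log2 change -1.19 ± 0.18 SE, adjusted p = 3.09e-06). Sp140, a chromatin reader of immune cells (2.30), Ets2 (1.29) and the repressor Etv3 (1.18) also rose.
Factors of the DC lineage were split, 6 higher and 2 lower of 27 (median 0.10). Zeb2 had 10.19, 10.39 and 11.14 in WT DCs and 7.77, 9.02 and 10.02 in unstimulated DCs (log2 change 1.50 ± 0.20 SE), and Notch1 (1.25), Nfil3 (1.18), Etv6 (1.14), Ikzf1 (1.04) and Relb (1.01) rose. Besides Mycl, Klf4 was called lower (-1.03). Zbtb46, the factor that marks conventional DCs, was not called (-0.38).
Batf2, an AP-1 family factor, had 8.26, 8.75 and 9.04 in WT DCs and 6.49, 6.49 and 6.60 in unstimulated DCs and was near background in unstimulated DCs (log2 change 2.15 ± 0.14 SE). Several early response genes were lower. Egr1 had 13.21, 13.53 and 13.84 in WT DCs and 14.31, 14.72 and 14.96 in unstimulated DCs. Fosb had 11.31, 11.57 and 11.83 in WT DCs and 12.01, 12.93 and 13.21 in unstimulated DCs, and the groups were apart in both genes (log2 changes -1.20 ± 0.21 and -1.26 ± 0.19 SE). Egr2 (-1.34) and Jun (-1.08) were called with overlap, and Nr4a3, of the same early response kind, was higher (1.29). Of 27 AP-1, ATF and CREB genes 2 rose and 2 fell, and of 30 KLF, EGR and nuclear receptor genes 1 rose and 3 fell. The shares called were 14.8% and 13.3%, against 7.19% of all genes. Ldb1, a bridging cofactor of LIM and GATA factors, was among the largest falls of all genes with 9.96, 10.24 and 10.51 in WT DCs and 11.26, 11.72 and 12.11 in unstimulated DCs and no overlap (log2 change -1.54 ± 0.11 SE, adjusted p = 6.21e-12).
Of 23 genes listed for NF-kB subunits, inhibitors and related genes such as Traf1, Traf6 and Tnfaip2, 7 rose and none fell. Their median of 0.72 stood beside -0.02 for all genes. Bcl3, a nuclear IκB protein, led with 2.27, and Traf1 (1.29), Tnfaip2 (1.26), Traf6 (1.16) and Nfkb2 (1.11) followed. Of 26 genes of the IRF, STAT and SOCS list 5 rose and none fell. Irf7 and Stat2 were counted with the antiviral core instead and rose by 4.49 and 2.36. The inhibitor Cish had 8.34, 9.27 and 9.99 in WT DCs and 6.49, 6.53 and 7.21 in unstimulated DCs. Socs3, another inhibitor, had 12.01, 12.22 and 12.57 in WT DCs and 9.64, 10.39 and 10.65 in unstimulated DCs, and these were the largest rises of the list (log2 changes 2.60 ± 0.28 and 1.94 ± 0.14 SE). Of 36 MAP kinase and phosphatase genes 3 rose and 2 fell (13.9% called against 7.19% of all genes). The p38 gene Mapk14, with 10.72, 11.21 and 11.61 in WT DCs and 12.31, 12.49 and 12.62 in unstimulated DCs, and its activator Map2k6 (-1.17) fell (log2 change -1.33 ± 0.17 SE for Mapk14), while Spred1 (1.51) and Dusp16 (1.26), inhibitors of MAP kinase signalling, rose.
Ubiquitin ligases rose in 9 of 37 listed members and fell in none. Trim30a was counted with the antiviral core instead and rose by 3.57. Trim30d had 10.27, 10.75 and 11.29 in WT DCs and 6.49, 7.25 and 8.34 in unstimulated DCs. Pml, the organiser of nuclear bodies, had 12.73, 12.96 and 13.20 in WT DCs and 8.19, 9.77 and 11.27 in unstimulated DCs. Neither overlapped (log2 changes 3.38 ± 0.24 and 3.10 ± 0.25 SE). Trim21, a cytosolic Fc receptor and ligase (2.07), Marchf5 of mitochondria (1.90) and Rnf135, which acts on RIG-I (1.73), were next. Second probes of Pml and Trim21 changed by 0.05 and 0.06.

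Cell cycle genes were called in small numbers. Of 41 genes of G1/S and DNA replication 2 rose and none fell (median -0.09, 4.88% called against 7.19% of all genes). Ccnd2, cyclin D2, had 11.80, 12.13 and 12.61 in WT DCs and 8.27, 8.56 and 9.31 in unstimulated DCs and was 11.1-fold higher (log2 change 3.48 ± 0.21 SE, adjusted p = 4.93e-14). Rbl1, the p107 pocket protein that restrains E2F, had 9.17, 9.56 and 9.82 in WT DCs and 8.02, 8.19 and 8.52 in unstimulated DCs (log2 change 1.31 ± 0.13 SE). Both were higher in all WT samples than in any unstimulated sample. Of 33 genes of G2/M and mitosis the spindle factor Tpx2 was called (log2 change 1.52 ± 0.33 SE), with overlap. This was 3.03% called against 7.19% of all genes, and the median was 0.15. Pttg1 (0.88) and Foxm1 (0.49) came next by adjusted p and were under 2-fold.
Inhibitors of the cycle and p53 targets gave 4 rises and 2 falls of 33. Cdkn1a, the inhibitor p21, had 12.06, 12.35 and 12.85 in WT DCs and 9.05, 10.06 and 11.73 in unstimulated DCs. No sample overlapped, though unstimulated samples ranged widely (log2 change 2.31 ± 0.27 SE). Cdkn2b (1.40), Ccng2 (1.36) and Gadd45a (1.27) rose with overlap. Ypel3, a p53 target linked to senescence, had 9.30, 10.09 and 10.61 in WT DCs and 11.79, 12.28 and 12.48 in unstimulated DCs, the second largest fall of all genes (log2 change -2.20 ± 0.23 SE, adjusted p = 8.47e-09), although its other probe changed by -0.07. Sesn1, another p53 target, also fell (-1.02).
Genes of cell death rose in 8 of 27 members of the BCL2 and caspase list and fell in none. Mlkl, the executor of necroptosis, had 9.38, 9.79 and 10.26 in WT DCs and 6.49, 6.59 and 6.71 in unstimulated DCs. Casp4, which senses cytosolic lipopolysaccharide, had 12.27, 12.45 and 12.69 in WT DCs and 8.62, 9.28 and 9.50 in unstimulated DCs. Bcl2l11, the pro-apoptotic BIM, had 10.40, 10.79 and 11.20 in WT DCs and 8.09, 8.32 and 9.10 in unstimulated DCs. The groups stood apart in all 3 (log2 changes 3.21 ± 0.18, 3.21 ± 0.18 and 2.30 ± 0.20 SE). For Mlkl and Bcl2l11 another probe gave 0.25 and 0.58. Casp8 (1.48), Apaf1 (1.47), Bcl2l14 (1.59), Casp1 (1.07) and Birc3 (1.03), an inhibitor of apoptosis, completed the list's calls. Of 29 chaperone and unfolded protein genes 5 rose, Hsph1 first (1.93), and its samples overlapped between the groups.

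The 230 falls were small and spread over many functions, with 53 of them in any of the lists. Ank, which exports pyrophosphate and citrate, had 7.92, 8.17 and 8.28 in WT DCs and 9.52, 9.67 and 10.16 in unstimulated DCs. Cerk, which phosphorylates ceramide, had 8.89, 9.40 and 9.74 in WT DCs and 10.68, 11.09 and 11.61 in unstimulated DCs. St6gal1, which adds sialic acid to surface glycans, had 10.45, 10.87 and 11.06 in WT DCs and 12.31, 12.37 and 12.61 in unstimulated DCs. These 3 genes had no overlap (log2 changes -1.61 ± 0.15, -1.84 ± 0.17 and -1.58 ± 0.15 SE). Entpd4 (-1.59), a Golgi nucleotidase, Tpcn1 (-1.58), an endolysosomal channel, Lat2 (-1.57), an adaptor of immune receptors, Imp3 (-1.52), a factor of ribosomal RNA processing, and Dbp (-1.45), a factor of circadian output, belonged to the 25 largest falls and also separated the groups. So did Ivns1abp (-1.79), Bbs9 (-1.63) and Haghl (-1.47). Mfng, which modifies Notch receptors, and Mmp9, the gelatinase B, fell with overlap (-1.61 and -1.81). Of 53 ribosomal protein genes Rpl22 and Rpl7a fell (-1.02 and -1.03), 3.77% called against 7.19% of all genes. The median of the list was -0.23 (-0.06, -0.22 and -0.13 within sets A, B and C).

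Part of the falls rested on some of the unstimulated samples. Hebp1, a haem-binding protein, had the largest fall of all (log2 change -2.24 ± 0.54 SE), with WT levels of 6.89 to 8.26. Unstimulated replicates 1-2, 3, 4, 5 and 8 lay at 10.48 to 11.92, and replicates 6, 7 and 9 at 7.04 to 7.67, inside the WT range. Cd207 changed by -2.23 against the unstimulated samples inside the sets and by -0.80, not called, against those outside. Klra17 had the same order as Hebp1, with the 5 high unstimulated samples at 10.81 to 11.85, the other 3 at 8.24 to 8.37 and WT samples at 8.01 to 8.75. St6galnac2, a sialyltransferase, was at background in all 8 WT samples and in the same 3 unstimulated ones, and at 9.11 to 9.69 in the other 5 (detected on 6 of 9 unstimulated arrays, on average at least 3.61-fold lower in WT DCs). Ctse was at 9.71 to 10.29 in WT DCs, at 9.70 and 9.88 in unstimulated replicates 6 and 7, and at 6.49 to 6.82 in the other 6. PRR-/- DCs at 4 h had a mean level of 10.59 for Hebp1, 10.47 for Klra17 and 6.76 for Ctse. The labels give no genotype for the unstimulated samples, and whether it differs among them was not tested.
A second group followed the sets of resembling samples. Against the unstimulated samples inside the sets, Jun changed by -0.49, Rpl7a by -0.35, Nr4a3 by 0.53, Nfil3 by 0.50 and Jdp2, an AP-1 repressor, by 0.44, and none was called. Against those outside the sets the changes were -1.67, -1.71, 2.05, 1.85 and 1.84. Over all genes, 387 of the 461 rises were called against both the 4 inner and the 4 outer unstimulated samples, 12 against the inner ones only, 60 against the outer ones only and 2 against neither. Of the 230 falls 117 were called against both, 30 against the inner samples only and 83 against the outer ones only. Within sets A, B and C, 458, 461 and 461 of the rises and 230, 230 and 230 of the falls kept their direction, and 337, 414 and 363 rises and 109, 178 and 122 falls were past the 2-fold limit. These samples also chose the genes, and the kept direction is no independent check.

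**Figure D4:**
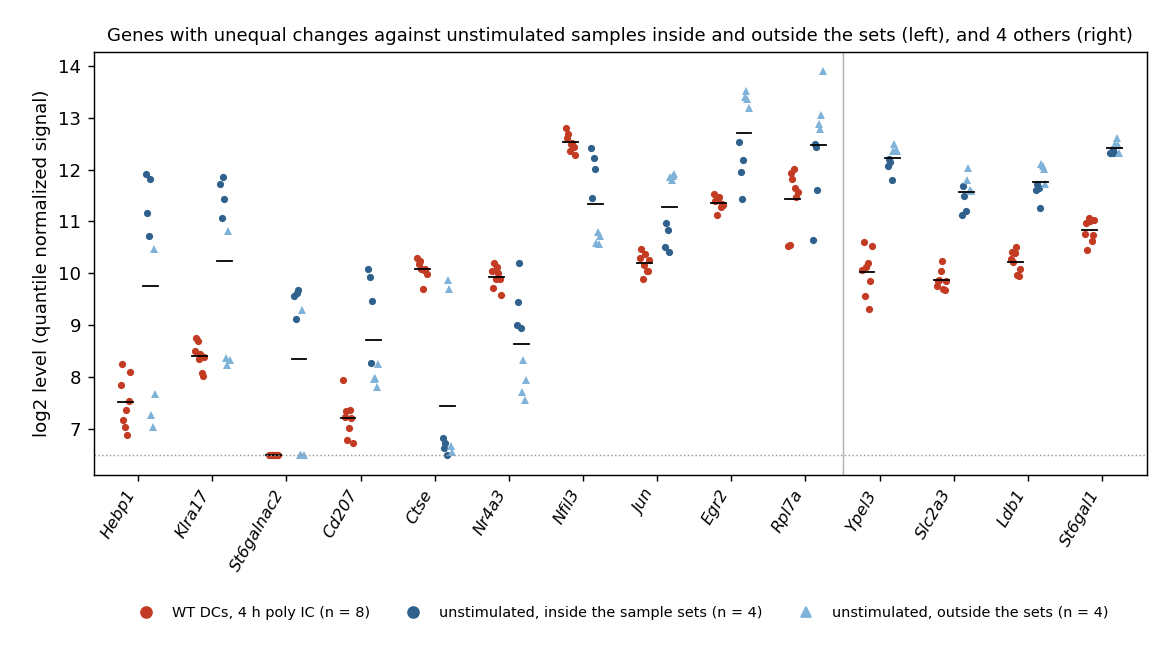
Log2 level of 14 genes in each sample, WT DCs 4 h after poly IC in red on the left of each gene and unstimulated DCs on the right, with dark circles for the 4 samples inside the sets of resembling samples and light triangles for the 4 outside. Bars are group means and the dotted line is background. Left of the grey line the changes against inner and outer samples were unequal, as for Hebp1 (-3.88 inside and -0.59 outside), and right of it all WT samples lay below all unstimulated samples.

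Of 208 called genes named here and followed through the alternative settings, 141 were called in every one, and none changed sign. Irf7, Stat2 and Trim30a were not followed. With arrays brought to one median, 26 kept their sign at 0.62 to 1.00 log2 units but were not called, among them Cd81, Cxcr3, Fcgrt, Klrd1, H2-DMa, H2-DMb1, H2-DMb2, Ciita, Egr1, Egr2, Fosb, Jun, Klf4, Mycl, Mapk14, Map2k6, Man2b1 and Pld4. In the authors' normalized values 15 were not called, among them Bcl2l11, Cers6, Il21r, Mfng, Nr1h3, Nr4a3, Osm, Tapbpl and Txn1, and smaller changes were called for Rilpl1 (1.63 there), Casp4 (1.68), Upp1 (2.13), Pml (1.46), Trim21 (1.19) and Cd200 (1.03). Of 62 genes named by the rule, called and measured by more than 1 probe, 30 had a probe that changed by less than 2-fold in the same direction, among them Cerk (-0.53), Bbs9 (-0.51), Nectin2 (0.11), Pacsin1 (0.10) and Nr4a3 (0.00). Against the unstimulated samples inside the sets 28 genes were not called: Birc3, Cat, Cd274, Cers6, Ciita, Egr2, Ets2, Gpr141, Gsto1, Ifng, Ikzf1, Il16, Jdp2, Jun, Klf4, Klrd1, Lipa, Mdh2, Nampt, Nfil3, Nr4a3, Rpl22, Rpl7a, S100a8, Sesn1, Slpi, Tnfaip2 and Tnfrsf11a. With the sets as a block the same genes were not called, 26 in all, except Ifng and Nampt, which were. Against those outside the sets 13 were not called, among them Cxcr3, Fcgrt, Icam1, Il12rb2, Casp1, Fads1 and Relb. Leaving out 1 sample ended the call of 20 genes, whose changes were then 0.83 to 1.24 log2 units: Birc3, Cd70, Ctps, Cxcr3, Fcgrt, Gsto1, Icam1, Ifng, Ikzf1, Il12rb2, Il2ra, Jun, Klf4, Mdh2, Nfkb2, Relb, Rpl22, Rpl7a, Sesn1 and Tnfsf10. Leaving out WT replicate 6 ended 10 of these calls, more than any other sample.

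Markers of DCs and of other cells were read in the same samples. Of 12 measured genes of the DC marker list 2 were called higher and 1 lower (25% against 7.19% of all genes). The changes of this list ran from -1.09 to 1.44, with a median of -0.08. The DC markers Itgax (-0.50), Zbtb46, H2-Aa and Cd74 were not called. Flt3 and, of the other lineages, Ncr1, Cd79a, Ly6c2, Ccr2 and Ccr9 had no probe that passed the detection filter. T cell markers were at or near background, with Cd3e detected on no array of either group. Of 10 T cell and 8 B cell markers none was called, and their mean log2 levels were 6.49 to 6.57 and 6.84 to 7.14 in WT DCs and 6.53 to 6.66 and 7.01 to 7.33 in unstimulated DCs. Markers of red pulp macrophages rose in 5 of 18 members, and their mean level was 7.97 to 8.87 in WT and 7.53 to 8.21 in unstimulated samples. The 5 were Axl, Hmox1, Spic (1.49), Slpi (1.29) and Timd4, while Vcam1 was not called (0.19) and Cd163 was undetected in WT DCs. Of 7 monocyte markers Cd14 (1.73), Fcgr1 and Fcgr4 rose and Lyz2 fell (mean level 9.58 to 10.33 in WT and 9.12 to 9.75 in unstimulated samples). Of 12 neutrophil markers S100a8 (1.60) and Hp (2.15) rose and Mmp9 fell (7.33 to 7.84 in WT and 7.17 to 7.48 in unstimulated samples), while S100a9 was not called (0.90) and Camp and Ngp were undetected in both. Of 9 erythroid and platelet markers Hba-a1 (2.39), Hbb-bt (1.39) and Car2 (1.27) rose (7.18 to 7.60 in WT and 6.77 to 6.97 in unstimulated samples). Of 12 plasmacytoid DC markers Bst2 (2.76), Pacsin1 (1.68) and Lag3 rose, Klra17 fell and Siglech was not called (-0.37). Of 8 NK cell markers Klrk1 rose (1.30) and Nkg7 was not called (0.33). The medians of the cDC1 and cDC2 marker lists were -0.43 (16 genes) and -0.35 (19 genes). Within sets A, B and C they were -0.64, -0.34 and -0.64 for cDC1 and -0.16, -0.12 and -0.13 for cDC2. The calls were 2 rises (Ly75 and Ifi205, an IFN-inducible gene) and 2 falls (Cd209a and Klrd1). The part of any other cell in the changes of Axl, Hmox1, Cd14, Fcgr1, Fcgr4 or S100a8 was not tested.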

How the data were processed

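RNA of sorted spleen DCs had been amplified, labelled with biotin and hybridised to Illumina mouseRef-8 v2.0 bead arrays, 1 array per sample. The deposited signal table holds non-normalized intensity per probe and a detection p-value per probe as the authors extracted them with BeadStudio (version not given in the sources used here). The authors' normalized log2 table, made in GeneSpring 10.0 per the study's methods and centred per probe, correlated with the values used here at r = 0.983 to 0.993 across probes and served as an alternative.

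Signals below the lowest signal detected at p under 0.05 on an array were raised to it (77.58 to 94.22 in WT DCs and 79.34 to 107.6 in unstimulated DCs), values were taken to log2 and all 36 arrays were quantile normalized together. The arrays measure brightness, so their number limits the precision. Probes detected on at least 3 arrays were kept (14202 of 25697), and each gene was given by its kept probe of highest mean (9606 genes, 2589 of which had more than 1 kept probe, whose range of changes was checked). Of the probes 23978 had 1 gene symbol, 23962 of them updated through Entrez identifiers to current RefSeq names, 1719 had none and 0 had several. Near-repeat arrays numbered 1 and 2 were averaged in 3 groups, which left 33 samples. limma 3.58.1 in R 4.3.3 was fitted with 1 mean per group over all of them, with Benjamini-Hochberg adjustment over all genes. The procedure was tested on simulated data. A fold for a gene undetected in every sample of a group is a bound set against background. Figures were drawn with matplotlib 3.10.9 in Python 3.11.15.

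The members and the 53 gene lists (1803 genes) were chosen with earlier results of these data known, so a list's count is a description read beside the share of all genes called. Genes named in the text were the 20 largest rises outside the antiviral core and type I IFN lists, the 25 largest falls, up to 5 called genes of largest change in each list, up to 2 further members by smallest adjusted p where fewer than 2 were called, and markers of cell types. Outside that rule, to complete short counts or to show a value, Alox5ap, Apaf1, Birc3, Camp, Casp1, Cd163, Clec4d, Ctps, Dck, Fabp5, Fads1, Gsto1, Hexa, Hk1, Ikzf1, Il10, Il16, Il2ra, Ltb4r1, Ngp, Osm, Psmb10, Relb and Sesn1 were chosen after their values were seen. Cxcl9, Irf7, Stat2 and Trim30a, members of the antiviral core, were also named after their values were seen. The sets of resembling samples were read from the same values. Alternatives covered scaling, background, the authors' table, filters, the probe per gene, averaging, the samples in the fit, the methods' t-test, thresholds, blocks and leaving out each sample. The kind of control behind the unstimulated samples was not analysed here.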

Additional observations from a re-analysis of the deposited data

Results flagged for a closer look

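For 222 genes named in the text, a sample was marked in 30 of 444 groups of 8 because its gap to the next sample took a share of the range of its group past the Dixon critical value for 8 samples. Chance alone marks about 1 in 20 groups of normally distributed values. That rate does not hold where the other samples lie at or near background, as in the unstimulated groups of Il10, Chil1 and Batf2. WT replicate 5 stood above the rest of its group at a log2 level of 11.53 for Chil1 (next sample 10.36). WT replicate 5 stood below the rest of its group at a log2 level of 8.671 for Mxd1 (next sample 9.34). WT replicate 8 stood below the rest of its group at a log2 level of 8.697 for Hif1a (next sample 9.2). Unstimulated replicates 1-2 (averaged) stood above the rest of their group at a log2 level of 6.894 for Car13 (next sample 6.676), 7.498 for Clec4e (next sample 7.146), 12.94 for Elovl5 (next sample 12.55), 8.13 for Gadd45a (next sample 7.606), 6.669 for Il10 (next sample 6.502), 10.85 for Max (next sample 10.5), 6.902 for Upp1 (next sample 6.664) and 9.552 for Vcam1 (next sample 8.686). Unstimulated replicates 1-2 (averaged) stood below the rest of their group at a log2 level of 6.532 for Hk1 (next sample 6.958), 7.044 for Itgax (next sample 8.483), 8.99 for Mfng (next sample 10.27), 7.083 for Tpx2 (next sample 7.946) and 7.427 for Txn1 (next sample 8.645). Unstimulated replicate 3 stood above the rest of its group at a log2 level of 8.608 for Map2k6 (next sample 8) and 6.67 for Nectin2 (next sample 6.539). Unstimulated replicate 3 stood below the rest of its group at a log2 level of 8.616 for Casp4 (next sample 9.116) and 11.36 for Psmb10 (next sample 11.85). Unstimulated replicate 4 stood above the rest of its group at a log2 level of 6.649 for Cfb (next sample 6.54) and 7.21 for Cish (next sample 6.797). Unstimulated replicate 4 stood below the rest of its group at a log2 level of 10.26 for Cd69 (next sample 11.08). Unstimulated replicate 5 stood above the rest of its group at a log2 level of 8.109 for Bcl2l14 (next sample 7.31) and 6.946 for Timd4 (next sample 6.629). Unstimulated replicate 6 stood above the rest of its group at a log2 level of 6.601 for Batf2 (next sample 6.519) and 6.731 for Chil1 (next sample 6.518). Unstimulated replicate 9 stood above the rest of its group at a log2 level of 8.961 for Trem3 (next sample 8.484). Unstimulated replicate 9 stood below the rest of its group at a log2 level of 15.28 for Cd74 (next sample 15.54) and 9.016 for Tlr7 (next sample 9.626). The averaged unstimulated replicates 1 and 2 were marked most often, in 13 of the 30 groups, and Itgax, the CD11c gene by which the cells were sorted, had the widest of these gaps there.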

How the results depend on the processing

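With arrays brought to one median, 131 genes were lower and 3469 did not overlap, and the median of all genes was 0.23. With the neqc background 1167 were called, 541 of them lower. Without the fold limit 4463 were called, 1624 higher and 2839 lower. Against the unstimulated samples outside the sets alone, an alternative added after seeing the data, 349 were lower and 3213 did not overlap, while those inside gave 420 higher and 207 lower. Leaving out each sample in turn gave 641 to 743 genes called, 442 to 482 higher, 199 to 261 lower and 1735 to 1932 without overlap. The cause of these moves was not tested.

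The authors' table gave 471 higher and 215 lower, of which 439 and 205 were calls in the report, and the methods' t-test 457 and 229. With the sets of resembling samples as a block 425 were higher and 209 lower, 404 and 147 of them shared. The labels do not say what a replicate number marks. WT and unstimulated samples of one number deviated together at correlations of -0.0394 to 0.729, so the numbers were not taken as pairs. With the replicate number as a block 456 genes were higher and 225 lower, 444 and 192 of them shared, and 10 named genes lost their call. The list counts came to 268 calls in all (252 to 356 over the settings). No call changed sign in any setting. Signals near background limit what was seen of low genes, whose changes are bounds or are held down by the background level.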
